A study of Homo sapiens with 2 samples.

Results

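The EGR, IER and mRNA-decay immediate early genes are short, fast-responding genes whose transcripts appear soon after a cell is stimulated. Of the 10 genes chosen for them by name (EGR1, EGR2, EGR3, IER2, IER3, IER5, DUSP1, ZFP36, ZFP36L1 and BTG2), 8 were named, with no other gene, by a probe set in the platform annotation used here. These 8 genes had 15 probe sets of the 54675 on the array. EGR2 and BTG2 had none, so their expression was not analysed here. The arrays hold RNA of CL1-0, an established human lung adenocarcinoma line, given an antibody to FSTL1, a secreted follistatin-family glycoprotein. There was 1 array of cells 6 h into the treatment and 1 array at 0 h. Per the labels' treatment protocol, the cells of both groups were stably transduced and kept under puromycin for selection, and the sources used here name no vector. No array of cells kept for 6 h without the antibody was analysed here, so time in culture, handling and the antibody cannot be told apart.

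The members fall into 3 kinds of early response. EGR proteins are zinc finger transcription factors that bind GC-rich sites, and their genes are switched on by growth factors through ERK signalling and serum response factor (SRF). IER2, IER3 and IER5 encode small proteins that are named for this rapid induction. The remaining members end responses: DUSP1 is a nuclear phosphatase that inactivates MAP kinases, ZFP36 and ZFP36L1 bind AU-rich elements in mRNAs and bring in the CCR4-NOT deadenylase, and BTG2 is an antiproliferative protein that also contacts this complex. After a single stimulus such transcripts are typically transient, because they are unstable themselves.

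The promoter windows of EGR1 and DUSP1 are shown because these genes had the highest differences among the members, and that of IER5 because it was the 1 measured member whose representing probe set was lower at 6 h. Each window runs 5′ to 3′ on the gene's strand, from 250 bases before to 50 bases after an annotated transcript start, and was taken from RefSeq in GRCh38.p14. Capitals mark matches, on either strand, to the CArG box bound by SRF, to TGACGT (the half-site of the cAMP response element, CRE), to TATAA and to CCAAT. Their positions are chr5:138465229-138465528 on the plus strand for EGR1, chr5:172771146-172771445 on the minus strand for DUSP1 and chr1:181088450-181088749 on the plus strand for IER5.
EGR1: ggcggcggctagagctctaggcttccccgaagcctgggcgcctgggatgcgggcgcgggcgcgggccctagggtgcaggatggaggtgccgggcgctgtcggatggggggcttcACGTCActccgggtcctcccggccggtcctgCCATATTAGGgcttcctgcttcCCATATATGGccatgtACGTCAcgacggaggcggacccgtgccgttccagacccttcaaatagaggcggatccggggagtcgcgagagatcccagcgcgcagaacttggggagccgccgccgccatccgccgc
DUSP1: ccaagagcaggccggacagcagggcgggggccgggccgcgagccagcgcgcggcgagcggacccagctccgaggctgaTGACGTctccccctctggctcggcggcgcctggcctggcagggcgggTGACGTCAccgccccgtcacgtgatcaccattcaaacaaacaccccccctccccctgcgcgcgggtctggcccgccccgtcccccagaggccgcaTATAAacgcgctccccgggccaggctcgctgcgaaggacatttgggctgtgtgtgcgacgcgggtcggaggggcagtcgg
IER5: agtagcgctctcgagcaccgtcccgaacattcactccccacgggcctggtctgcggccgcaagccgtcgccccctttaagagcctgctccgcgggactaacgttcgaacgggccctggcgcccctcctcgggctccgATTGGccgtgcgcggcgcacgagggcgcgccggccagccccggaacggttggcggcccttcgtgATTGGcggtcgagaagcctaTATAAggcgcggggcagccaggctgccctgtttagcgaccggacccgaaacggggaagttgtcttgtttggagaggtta

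The EGR1 window held 2 CArG boxes, starting 105 and 83 bases before the transcript start, and 2 CRE half-sites, starting 136 and 67 bases before it. A CArG box was found in 1.29% and TGACGT in 7.98% of the 35116 RefSeq promoter windows of this length. DUSP1 held 3 matches to TGACGT, of which 2 overlap within 1 palindromic TGACGTCA, a motif in 1.85% of windows. It also had a TATAA (in 20.4% of windows) that starts 30 bases before the transcript start. IER5 held no CArG box and no TGACGT, but 2 CCAAT matches (in 34.6% of windows), 1 TATAA and 1 CCGGAA, the core of sites for ETS factors (in 17.2%). Among the other measured members, 1 of the 2 ZFP36L1 windows had a TGACGTCA and the other a CCAAT. ZFP36 had a TATAA and IER2 had a CCGGAA. IER3, also measured, had no window among those used here and was not searched. GCGNGGGCG is the GC-rich motif of EGR proteins (in 9.43% of windows). Among measured members it had 1 match each in the EGR1 window and in the ZFP36L1 window with the TGACGTCA. Of the members without a probe set, BTG2 had 2 matches to it. EGR2 had 1 in 1 of its 3 windows, and a CArG box and a CRE half-site in another. A match is a string of letters in the window and was not tested as a binding site.

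**Figure D1:**
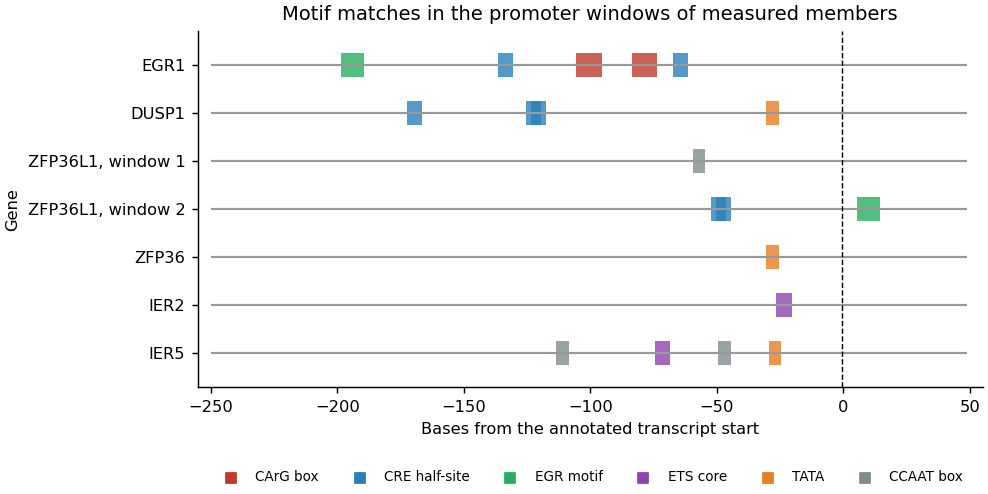
Matches to 6 motifs in the 7 promoter windows of 6 measured members; the x axis gives bases from the annotated transcript start (dashed line) and each box spans 1 match on either strand. EGR1 is the 1 of these windows with CArG boxes, and its 2 boxes lie between its 2 CRE half-sites. The darker overlap within the DUSP1 and ZFP36L1 boxes is the palindromic TGACGTCA.

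The deposited values are MAS5 probe set intensities on a linear scale. An intensity of 45.4, the median of all values of both arrays, was taken as an assumed background floor, with detection calls not used here. Values below it were set to it before log2 was taken, and differences are 6 h minus 0 h. With 1 array per time no difference has a replicate check or a test. The scatter is given in 2 other ways. Differences of probe sets of 1 gene had a pooled log2 SD of 0.16 over 6122 genes. Over the 12669 measured genes the 5th and 95th percentiles of the difference were -0.27 and 0.35. Probe sets of a gene are not replicates. In such bulk RNA a lower signal from fewer expressing cells and one from less RNA per cell cannot be told apart.

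EGR1, the founding member of its family, was higher at 6 h on all 3 of its probe sets. Its brightest probe set, 201694_s_at, read 542.8 at 6 h and 379.5 at 0 h, a log2 difference of 0.52 or 1.43-fold. The 6 h array was the high one on each set, but the size differed between them. Of the 6122 genes with several measured probe sets, 51.2% had all sets of the same sign. Probe set 227404_s_at read 272.8 at 6 h and 170.9 at 0 h, a log2 difference of 0.67 or 1.60-fold. Probe set 201693_s_at read 82.7 at 6 h and 73.9 at 0 h, a log2 difference of 0.16, about as large as the pooled SD of 0.16. Of the 12669 genes, 178 (1.41%), EGR1 included, had a difference as high as that of its brightest set or higher. All 3 identifiers end in _s_at, which marks probes that match several transcripts of the design.

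EGR3, a related zinc finger factor of the same family, was not measurable. Its single probe set, 206115_at, read 38.0 at 6 h and 36.7 at 0 h, both under the floor, so it has no direction here. This does not show that the transcript was absent.

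DUSP1, which dephosphorylates JNK, p38 and ERK, had the highest difference among the members' representing probe sets. Probe set 201041_s_at read 670.4 at 6 h and 447.9 at 0 h, a log2 difference of 0.58 or 1.497-fold, just short of 1.5-fold. Only 99 of the measured genes (0.781%), DUSP1 included, were as high or higher. The dimmer probe sets of DUSP1 went opposite ways. Probe set 201044_x_at read 68.3 at 6 h and 44.0 at 0 h, so that with its 0 h value under the floor it was at least 1.503-fold higher. The raw values differ by 0.64 (1.553-fold). The call depends on the offset and scale: the log2 difference was 0.49 on the log2(value + 16) scale and 0.57 after centring on the median, both under 1.5-fold. A 60th percentile floor left this set unmeasured. Probe set 226578_s_at read 63.2 at 6 h and 71.0 at 0 h, a log2 difference of -0.17. The direction given for DUSP1 here is that of its brightest set, 201041_s_at. Set 226578_s_at, also above the floor on both arrays, went the other way. Set 201044_x_at was above the floor at 6 h alone, so under this floor its sign was fixed and is no support.

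The IER genes showed smaller differences, and not in 1 direction. IER3, which encodes an early protein that modulates cell death and ERK signalling, read 473.5 at 6 h and 391.1 at 0 h on 201631_s_at, a log2 difference of 0.28. IER2, a nuclear protein of the same early class, read 2238 at 6 h and 2014 at 0 h on 202081_at, a log2 difference of 0.15. IER5, which brings the PP2A phosphatase to its partners, among them the heat shock factor HSF1, read 230.8 at 6 h and 263.0 at 0 h on 218611_at, a log2 difference of -0.19. IER2 and IER3 were thus higher and IER5 lower at 6 h. All 3 differences lay inside the 5th to 95th percentiles of all genes. Each of these genes had 1 probe set, so there is no other reading of it. A difference as high as that of IER3 or higher occurred in 8.94% of measured genes, as high as that of IER2 in 22.6%, and 10.8% were as low as IER5 or lower.

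The mRNA-decay factors were a little higher at 6 h on their brightest probe sets. ZFP36L1, a CCCH zinc finger protein that marks AU-rich mRNAs for decay, read 1282 at 6 h and 1033 at 0 h on 211962_s_at, a log2 difference of 0.31 or 1.24-fold. Among probe sets with a mean intensity of 708.1 or more, the 5th and 95th percentiles of the difference were -0.19 and 0.30, so this value is just above the upper one. A difference that high or higher occurred in 6.91% of genes. The other 3 probe sets of ZFP36L1 were dim: 211965_at read 45.5 at 6 h, barely above the floor, and 37.8 at 0 h, below it, and 213277_at and 213284_at lay between 16.1 and 20.9 on both arrays, under the floor. They give no usable direction under this floor. ZFP36 (tristetraprolin), the founding member, read 172.1 at 6 h and 155.1 at 0 h on its 1 probe set, 201531_at, a log2 difference of 0.15. As high or higher values occurred in 23.1% of genes.

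**Figure D2:**
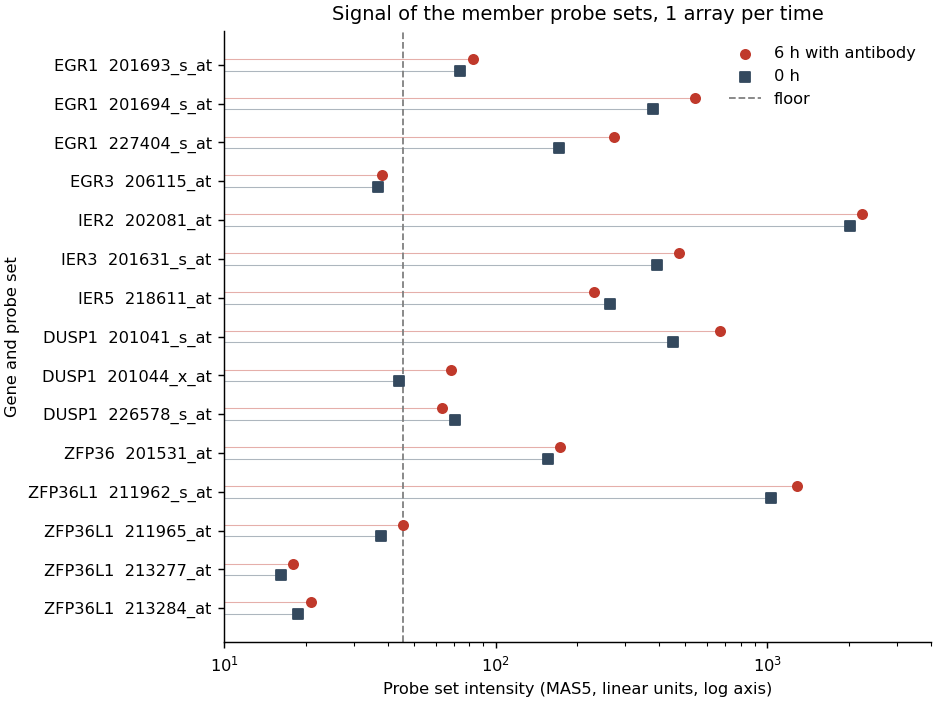
Intensity of the 15 member probe sets at 6 h (circles) and 0 h (squares) on a log axis, 1 array per time, with the floor of 45.4 as a dashed line. Circles lie right of squares for all 3 sets of EGR1 and for 2 of the 3 sets of DUSP1, and left of them for IER5 and for the third DUSP1 set; levels of different probe sets are not comparable with each other.

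Read together, 12 of the 15 probe sets were measured, that is above the floor on at least 1 array: 10 on both arrays and 2 at 6 h alone. They belong to 7 genes. With a gene represented by its probe set of highest mean, 6 of the 7 were higher at 6 h and 1 lower, where 54.3% of all measured genes were higher. The median log2 difference of the 7 was 0.28 (range -0.19 to 0.58), beside 0.017 over all genes. The sizes were modest: 0 of 7 members were at least 1.5-fold higher, where 0.75% of all measured genes were, and 0 of 7 were at least 1.5-fold lower, where 0.182% were. Of the 12 probe sets 2 were at least 1.5-fold higher, those of EGR1 (227404_s_at) and DUSP1 (201044_x_at, a bound), and 0 lower. Of 23272 measured probe sets with 1 gene, 0.761% were at least 1.5-fold higher and 0.18% at least 1.5-fold lower. The DUSP1 set was measured through its 6 h value alone, so it could only count as higher. Of the 2, only the EGR1 set was above the floor on both arrays. The EGR1 set stayed past 1.5-fold in all 6 other floors and scalings tried (log2 difference 0.63 to 0.67). The DUSP1 set did so in 3 of the 5 that gave it a value. EGR1 and DUSP1 stood at the high end, ZFP36L1 and IER3 between, and IER2 and ZFP36 near the bulk of genes. The gaps between neighbours in this order are smaller than the pooled SD of 0.16, except those between ZFP36L1 and EGR1 (0.31 and 0.52) and between ZFP36 and IER5 (0.15 and -0.19). That SD is of single probe set differences, and a gap between 2 of them scatters more, so no step in the order was tested.

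**Figure D3:**
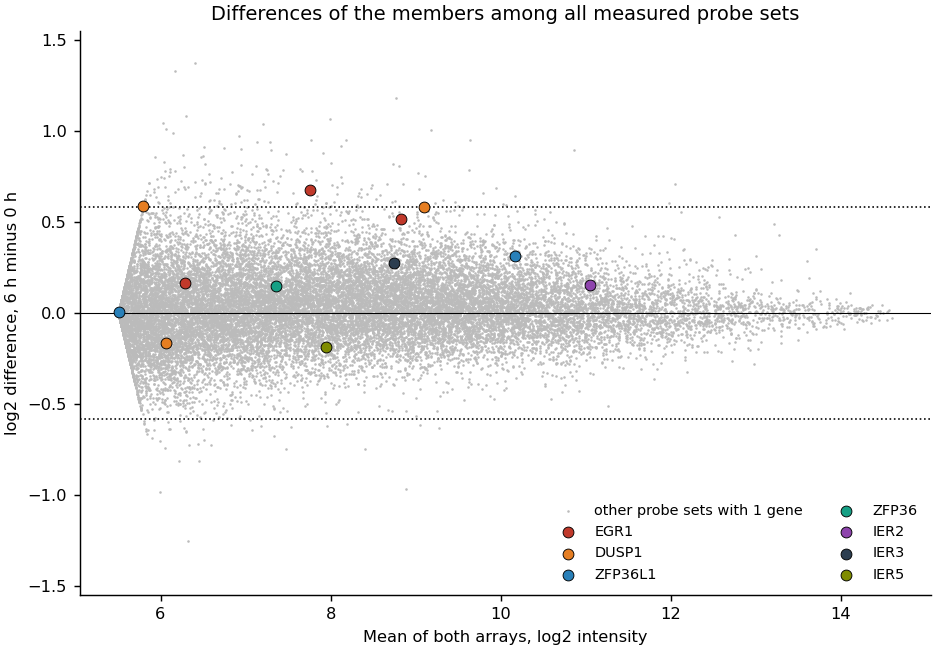
Log2 difference, 6 h minus 0 h, against the mean log2 intensity of both arrays for 23272 measured probe sets (grey) and the 12 of the members (coloured by gene); dotted lines mark 1.5-fold. The brighter EGR1 sets (0.52 and 0.67) and the brightest DUSP1 set (0.58) sit in the upper tail of the cloud, with other probe sets above them. The dimmest EGR1 set (0.16) lies within the cloud, and IER5 (-0.19) and a dim DUSP1 set (-0.17) lie below 0.

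Genes that work with these members, and other immediate early genes, were described from 11 lists. These held 123 measured genes of 151 listed, with the members left out. At 6 h 81 of them were higher and 42 lower, where 54.3% of all measured genes were higher. The median log2 difference of the 123 was 0.057, beside 0.017 over all genes. At least 1.5-fold higher were 8 of the 123, where 0.75% of all measured genes were. Of these 8, 7 were in the list of other immediate early genes, and 1, GDF15, was above the floor at 6 h alone. The lists were chosen with earlier results of these data known. At least 1.5-fold lower was 1, where 0.182% were. The counts of higher genes in each list below stand beside the same 54.3%. Upstream, the SRF cofactors and ternary complex factors, which carry ERK and actin signals to CArG boxes, had a median of 0.20, with 5 of 6 higher. ELK3 was at 0.43 (531.3 at 6 h and 393.4 at 0 h), SRF itself at 0.27 (599.8 at 6 h and 496.3 at 0 h), MRTFA at 0.20 and MRTFB at 0.20. The other measured set of SRF was at 0.06, and those of MRTFA were lower, at -0.49 and -0.28. Transcripts of the MAP kinases and the kinases they activate were near 0, with a median of -0.006 and 6 of 13 measured genes higher, and the largest differences at RPS6KA4 (-0.34), RPS6KA5 (0.17), MAPKAPK3 (-0.16) and RPS6KA1 (0.15). Kinase mRNA does not show kinase activity.

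Among the corepressors that bind EGR proteins, NAB1 was at 0.33 (95.7 at 6 h and 76.0 at 0 h) and NAB2, itself an EGR target, at -0.05 with its other set at -0.29. EGR4 was under the floor on both arrays. Of 12 measured genes described as EGR1 targets 8 were higher, with a median of 0.13. GDF15, a stress cytokine, was at least 1.81-fold higher (82.4 at 6 h and under the floor at 0 h), and was the 1 of them past 1.5-fold. VEGFA followed at 0.51 (other sets from 0.13 to 0.42), FN1 at 0.27 (2 other sets at 0.31 and 0.36) and TGFB1 at 0.26. Each of these genes answers to other regulators too.

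The other dual-specificity MAP kinase phosphatases went both ways. Only 4 of the 9 measured were higher, and the median was -0.02. DUSP8 was at -0.75 (136.8 at 6 h and 230.1 at 0 h), but its other set was at 0.06. DUSP16, which acts on JNK, was at 0.44 (other sets 0.03 and 0.48), and DUSP6, the cytoplasmic ERK phosphatase, at 0.41 (4746 at 6 h and 3569 at 0 h) with other sets at 0.32 and 0.61. DUSP10 was at 0.30.

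On the decay side, 15 of 23 genes of deadenylation, decapping and 5′ decay were higher, with a median of 0.05. DCP1A, a decapping activator, was at 0.43 (930.4 at 6 h and 689.7 at 0 h) with its other set at 0.26. CNOT8, a deadenylase subunit that BTG and TOB proteins bind, was at 0.37 with other sets at 0.35 and 0.59. CNOT3 was at 0.37 with its other set at 0.08, and PAN3, of the PAN2-PAN3 deadenylase, was at 0.37. The other AU-rich element binding proteins had a median of 0.04, with ZFP36L2 at 0.12, HNRNPD at 0.09, KHSRP at 0.06 and TIAL1 at -0.04. Other sets ran from -0.12 to 0.08 for HNRNPD, from -0.29 to 0.15 for KHSRP and from 0.05 to 0.06 for TIAL1. All 4 measured BTG and TOB relatives of BTG2 were higher on their brightest sets, with a median of 0.26. BTG1 was at 0.57 (326.2 at 6 h and 219.9 at 0 h) with its other set at 0.70, TOB2 at 0.39, BTG3 at 0.14 and TOB1 at 0.05. The other sets of TOB2 (-0.13) and TOB1 (-0.09) were lower.

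Of 21 transcripts described as targets of ZFP36 proteins 10 were measured, with a median of 0.11 and 8 higher. VEGFA was at 0.51 (1637 at 6 h and 1153 at 0 h) with other sets from 0.13 to 0.42. PLK3 was at 0.30 with its other set at -0.28, and CDKN1A at -0.26. FOS was at least 1.18-fold higher (53.7 at 6 h, and 37.9 at 0 h, under the floor). The classical inflammatory targets TNF, IL6, CXCL8 and PTGS2 were under the floor on both arrays. PP2A subunits and HSF1, to which IER proteins are linked, had a median of -0.02, with PPP2R5C at 0.34, IER5L at -0.25, PPP2R5B at -0.10 and PPP2R1B at -0.09. The other sets of IER5L and PPP2R5B were both at 0.08, those of PPP2R1B ran from -0.36 to 0.08 and those of PPP2R5C from -0.02 to 0.26. HSF1 was at 0.05.

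Other immediate early genes had a median of 0.24, near the 0.28 of the members, with 23 of 30 higher. Of the 30, 7 were at least 1.5-fold higher, where 0.75% of all measured genes were. This list, like the members, was chosen with earlier results of these data known. The largest differences were at NR4A2 (1.38), GEM (1.07), ATF3 (0.98) and NR4A3 (0.94), on their brightest sets, where the highest member, DUSP1, was at 0.58. The other measured set of ATF3 was at 0.30 and that of NR4A3 at 0.13, and the other 2 of NR4A2 were at 1.04 and 1.33. FOSB, FOSL1, KLF4, ARC and EDN1 lay under the floor on both arrays, as EGR3 did.

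**Figure D4:**
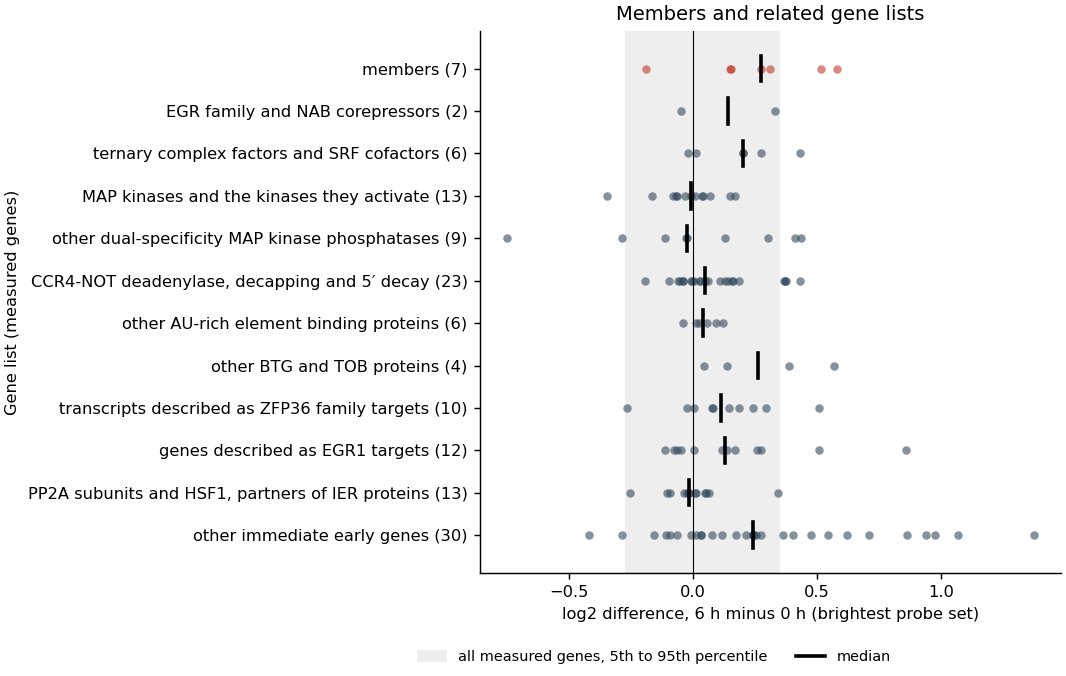
Log2 difference, 6 h minus 0 h, of each measured gene on its brightest probe set, for the 7 members (red) and for 11 related lists (dark), with the median as a bar; grey marks the 5th to 95th percentiles of all measured genes (-0.27 to 0.35). The medians of the members (0.28), the BTG and TOB relatives (0.26) and the other immediate early genes (0.24) are the 3 highest, and those of the MAP kinases, the other phosphatases and the PP2A list lie just below 0.

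The labels call the line a type II alveolar cell. Of 9 markers of that type 8 had a named probe set and 5 were above the floor: SFTPC (92.3 at 6 h and 113.3 at 0 h), SFTPB (132.7 at 6 h and 103.8 at 0 h), NKX2-1 (68.6 at 6 h and 56.7 at 0 h), ABCA3 (207.9 at 6 h and 173.4 at 0 h) and NAPSA (61.0 at 6 h and 51.1 at 0 h). The other sets of SFTPB had log2 differences from -0.39 to -0.04, and those of SFTPC from -0.17 to 0.02. The other set of NKX2-1 was at -0.18. SFTPD, LAMP3 and SLC34A2 lay under the floor on both arrays. The epithelial markers EPCAM, CDH1 and KRT19 were also under it, with KRT7, KRT8 and KRT18 between 48.1 and 148.2. All 4 leukocyte markers with a probe set and 4 of 5 endothelial ones were under the floor (PECAM1 read 54.5 at 6 h and 73.5 at 0 h), and of 6 fibroblast markers COL1A1 (179.4 at 6 h and 230.1 at 0 h, a log2 difference of -0.36, with its other set at 0.94) was above it on both arrays and DCN (41.1 at 6 h and 50.5 at 0 h) at 0 h alone. These marker levels were not tested for a part in any result above. Over all probe sets the median intensity was 44.9 at 6 h and 45.8 at 0 h, and the mean without the top and bottom 2% was 262.1 at 6 h and 256.4 at 0 h.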

How the data were processed

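RNA from CL1-0 cells was measured on 2 Affymetrix arrays, 1 per time, grouped by the time in the labels. The authors' deposited table gives intensity per probe set in linear units, made with MAS5 per the submitters' processing notes; version, parameters and scaling between arrays are not given in the sources used here. Scaling would move all genes together, and MAS5 values are noisy where dim. Probe sets were named through the platform annotation, with symbols updated by Entrez identifier: 41091 had 1 gene (41037 matched RefSeq), 1801 several, 11721 none, and 62 were controls.

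Values under the 50th percentile of both arrays pooled were raised to it, and log2 taken (Python 3.11.15, pandas 2.3.3, numpy 2.4.6). A gene is represented by its probe set of highest mean. With 1 array per time there is no test, and precision is limited by the number of arrays. The genes named are all members and, of each related list, up to 4 with the largest absolute difference, plus marker genes above the floor; genes under the floor and HSF1 were named outside this rule. Members, lists and thresholds were chosen with earlier results of these data known. Motifs were chosen with the sequences seen. The steps were tested on simulated data, with differences larger than those of the members and probe sets brighter than the dim member sets. Recovery of differences as small as those reported here was not tested. Alternatives were other floors (40th, 60th percentile, or none with log2(value + 16)), centring, quantile normalization, loess (span 0.3), a gene's median probe set difference, and leaving out _x_at and _s_at sets.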

Additional observations from a re-analysis of the deposited data

How the results depend on the processing

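Of the 12 measured member probe sets, 11 kept their sign under each floor and scaling that gave them a value. That was 5 of the 6 for the dim DUSP1 sets 201044_x_at and 226578_s_at, which the 60th percentile floor leaves unmeasured. Of the 69 alternative values of the 12 sets, 67 lay within 1 SD (0.16) of the values reported. The exception was the dim ZFP36L1 set 211965_at, between -0.017 and 0.27. Part of both counts was fixed in advance. A floor does not move a set above it on both arrays, and centring moves all sets by the same amount. No member's representing set passed 1.5-fold in either direction under the 8 alternatives. Leaving out _x_at and _s_at sets removes every set of EGR1, DUSP1 and IER3, and of the 4 members left 3 were higher with a median of 0.077. Among these 3 is ZFP36L1 on 211965_at (0.0044), a set at the floor, so this count and median rest in part on it. In the other settings the median of the members lay between 0.158 (median of each gene's probe sets) and 0.28. The share of all genes at least 1.5-fold lower was 0.283% with the floor at the 40th percentile, 0.0926% with it at the 60th and 0.0556% with no floor on the log2(value + 16) scale, where 0.399% were at least 1.5-fold higher. The count of member probe sets past 1.5-fold, chosen for these settings after the data were seen, was 1 with the floor at the 60th percentile (where the DUSP1 set is unmeasured), on the log2(value + 16) scale and after centring, and 2 in the others. Medians of 9 of the 11 lists kept their sign; that of EGR4 and the NAB genes was -0.047 with the 40th percentile floor and -0.045 on that scale, and that of the other phosphatases 0.19 with it at the 60th. Over all genes the median ran from -0.013 to 0.024 and took either sign. No paired analysis was possible because each time has 1 array. Signal over background limits EGR3 and the dim sets of DUSP1 and ZFP36L1.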

Other observations

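BTG2-DT, the divergent transcript that starts next to BTG2, was named by 1 probe set and is a gene of its own, not a member. It read 53.2 at 6 h and 63.9 at 0 h, a log2 difference of -0.27, close to the floor on both arrays. It was chosen after its value was seen, and it says nothing of BTG2 itself.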
